A study of Caenorhabditis elegans with 21 samples.

Results

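The 10 genes described here belong to the signalling routes that decide whether a Caenorhabditis elegans larva enters dauer, the long-lived and stress-resistant larval stage. They are 4 genes of steroid hormone synthesis and sensing (daf-36, hsd-1, daf-9 and daf-12) and 6 genes of the dauer TGF-beta pathway (daf-7, daf-1, daf-4, daf-8, daf-3 and daf-5). They were found by name among the 33586 named loci of the count table, and each matched 1 locus. The daf-4 locus also holds ckk-1 and the noncoding gene C05D2.11, so its counts cannot be assigned to daf-4 alone. The other 9 genes each have a locus of their own.

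Poly(A) RNA came from whole animals harvested as day 1 adults, in 21 libraries, 3 for each of 7 genotypes. The wild type was N2, the single mutant was daf-2(e1370), and there were 5 double mutants, daf-16(mu86);daf-2, daf-16(mg54);daf-2, daf-16(tm5030);daf-2, daf-16(tm5032);daf-2 and daf-16(tm6659);daf-2, each named below by its daf-16 allele. All genotypes but N2 carry daf-2(e1370), a mutation of the insulin/IGF-1-like receptor. Per the labels, mu86 is a null allele of daf-16, the FoxO transcription factor that acts when insulin signalling is low, mg54 hits isoforms a and f, isoform a alone is mutated independently in tm5030 and in tm5032, and isoform f alone in tm6659. Every genotype grew at 15 °C up to L4 and then spent 20 to 24 hours at 20 °C. The study asked which of the daf-16 isoforms act in daf-2 animals. Adults past the dauer decision were measured, so the values describe the RNA of these genes in reproductive animals and not in larvae choosing between dauer and growth.

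In C. elegans the steroid hormones called dafachronic acids are made from cholesterol by enzymes that include the Rieske-type oxygenase DAF-36 and the cytochrome P450 DAF-9. They bind the nuclear hormone receptor DAF-12, which drives reproductive growth when it holds hormone and dauer formation when it does not. In the parallel TGF-beta pathway, the ligand DAF-7, made by the ASI sensory neurons, acts through the type I receptor DAF-1 and the type II receptor DAF-4 and the Smad proteins DAF-8 and DAF-14, and it opposes the Smad DAF-3 and its Sno/Ski partner DAF-5, which promote dauer. Insulin signalling through DAF-2 runs beside both routes, and DAF-12 acts downstream of them.

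The positions are those of the Ensembl annotation of WBcel235, matched by gene name. The genes daf-36 (chromosome V, 10223513 to 10225710, minus strand) and hsd-1 (chromosome I, 13720125 to 13724453, minus strand) lie on autosomes, and daf-9 (X, 6196927 to 6200823, plus strand) and daf-12 (X, 10635908 to 10666875, plus strand) on the X chromosome. Of the TGF-beta genes, daf-7 (811844 to 813773, plus strand) and daf-4 (5625135 to 5632323, plus strand) are on chromosome III, daf-1 (132416 to 138081, plus strand) on IV, daf-8 (8584424 to 8587507, minus strand) on I, daf-3 (817922 to 825475, minus strand) on X and daf-5 (14033216 to 14052304, minus strand) on II. Annotated genes on the opposite strand overlap daf-12 (the noncoding RNAs F11A1.12, F11A1.13 and F11A1.14), daf-36 (C12D8.20) and daf-1 (the collagen gene col-99). The library kit does not mark strand, so reads of these genes and of their opposite partners cannot be told apart.

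Libraries held 29985446 to 46587902 fragments over named loci. The labels do not say that the 3 libraries of a genotype came from separate cultures, so the p-values below measure the spread between libraries, which may be technical. The daf-16 locus stood at 94.0 to 94.4 CPM (counts scaled to a common library size) in the mg54 libraries and at 49.0 to 70.1 CPM in the tm6659 libraries, against 142 to 175 CPM in daf-2. In mu86 it stood at 145 to 167 CPM, so the count over the whole locus does not show the mutation. In tm5030 and tm5032 it stood at 135 to 181 CPM. Markers of neurons, ASI neurons, intestine, hypodermis, oocytes, sperm and embryos were measured in the whole animals, and no list had a gene at 0 in all libraries. Some marker loci also hold other genes, whose reads enter the sums. These were 2 for neurons, 1 for intestine, 2 for hypodermis, 3 for oocytes, 2 for sperm, and 0 for ASI neurons and embryos. In whole animals, fewer cells of a type and less RNA per cell cannot be told apart.

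Levels per transcript length (FPKM, fragments scaled for transcript length and library, as deposited) placed most of these genes in the middle of the range of the 12091 loci tested. The daf-4 locus had a median of 19.8 FPKM over the 21 libraries (12.8 to 35.6), above the median of 62.7% of loci tested. The next levels were those of daf-5 at 15.4 FPKM (11.4 to 23.8), daf-36 at 15.3 (7.15 to 26.9), daf-1 at 11.2 (7.69 to 22.2) and daf-3 at 9.26 (4.92 to 12.6). The Smad gene daf-8 followed at 5.83 FPKM (3.68 to 8.48) and daf-12 at 5.55 FPKM (3.94 to 7.39). Neighbours in this order overlapped in their ranges down to daf-12. The P450 gene daf-9 (0.600 FPKM, 0.385 to 0.910) and the ligand gene daf-7 (0.538 FPKM, 0.109 to 1.54) were below every library of the other 7 detected genes, and they overlapped each other.

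The enzyme genes come first. The hsd-1 gene, whose product is related to hydroxysteroid dehydrogenases and is known from the XXX cells of the head, had 0 fragments in all 21 libraries. A count of 0 allows up to 3 counts, which is 0.0656 to 0.102 CPM depending on the library and covers counting error only. It was not tested, and 9 of the 10 genes were.

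For daf-36, known from the intestine, the N2 libraries stood at 20.5, 19.8 and 15.8 CPM and the daf-2 libraries at 10.7, 21.8 and 18.2 CPM. The 3 mu86 libraries were at 20.9, 23.4 and 22.8 CPM and the 3 mg54 libraries at 26.4, 21.8 and 24.9 CPM. The mu86 and mg54 groups were the highest, and of the N2 and daf-2 libraries only the daf-2 library at 21.8 CPM reached them. The tm5030 libraries were at 14.4, 19.2 and 18.4 CPM, the tm5032 libraries at 15.4, 18.2 and 16.5 CPM and the tm6659 libraries at 11.0, 16.8 and 18.0 CPM. All 9 of these were below all 6 mu86 and mg54 libraries.

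The daf-9 gene was scarce, with 12 to 70 fragments per library. In N2 it stood at 0.547, 0.382 and 0.882 CPM, and in daf-2 at 0.939, 0.589 and 1.08 CPM. The mu86 libraries gave 0.832, 0.966 and 1.84 CPM and the mg54 libraries 1.11, 0.817 and 1.95 CPM. The N2 libraries overlapped those of daf-2, mu86 and mg54, and the library numbered 3 was the highest in 6 of 7 genotypes, all but tm6659. In tm5030 the values were 1.24, 0.772 and 1.3 CPM, in tm5032 they were 1.00, 0.665 and 1.29 CPM, and in tm6659 they were 1.15, 1.36 and 1.11 CPM. The tm6659 libraries were all above the N2 and the daf-2 libraries, and the difference from daf-2 did not pass the test (log2 change 0.47 ± 0.41, edgeR adjusted p = 1). The genotype means ran from 0.603 ± 0.255 CPM in N2 to 1.29 ± 0.589 CPM in mg54 (SD, n = 3 each), a ratio of 2.14.

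The receptor gene daf-12 stood at 18.3, 15.2 and 16.2 CPM in N2 and at 29.1, 20.5 and 24.6 CPM in daf-2. All daf-2 libraries were above all N2 libraries. The double mutants overlapped daf-2, N2 or both, with 15.3, 22.1 and 22 CPM in mu86, 22.6, 17.2 and 22.7 CPM in mg54, and 19.0, 18.3 and 24.0 CPM in tm5030. In tm5032 the libraries were at 21.7, 17.2 and 26.5 CPM and in tm6659 at 23.5, 20.7 and 26.2 CPM. The tm6659 libraries were all above the N2 libraries, a pair of groups that no planned comparison tested.

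**Figure D1:**
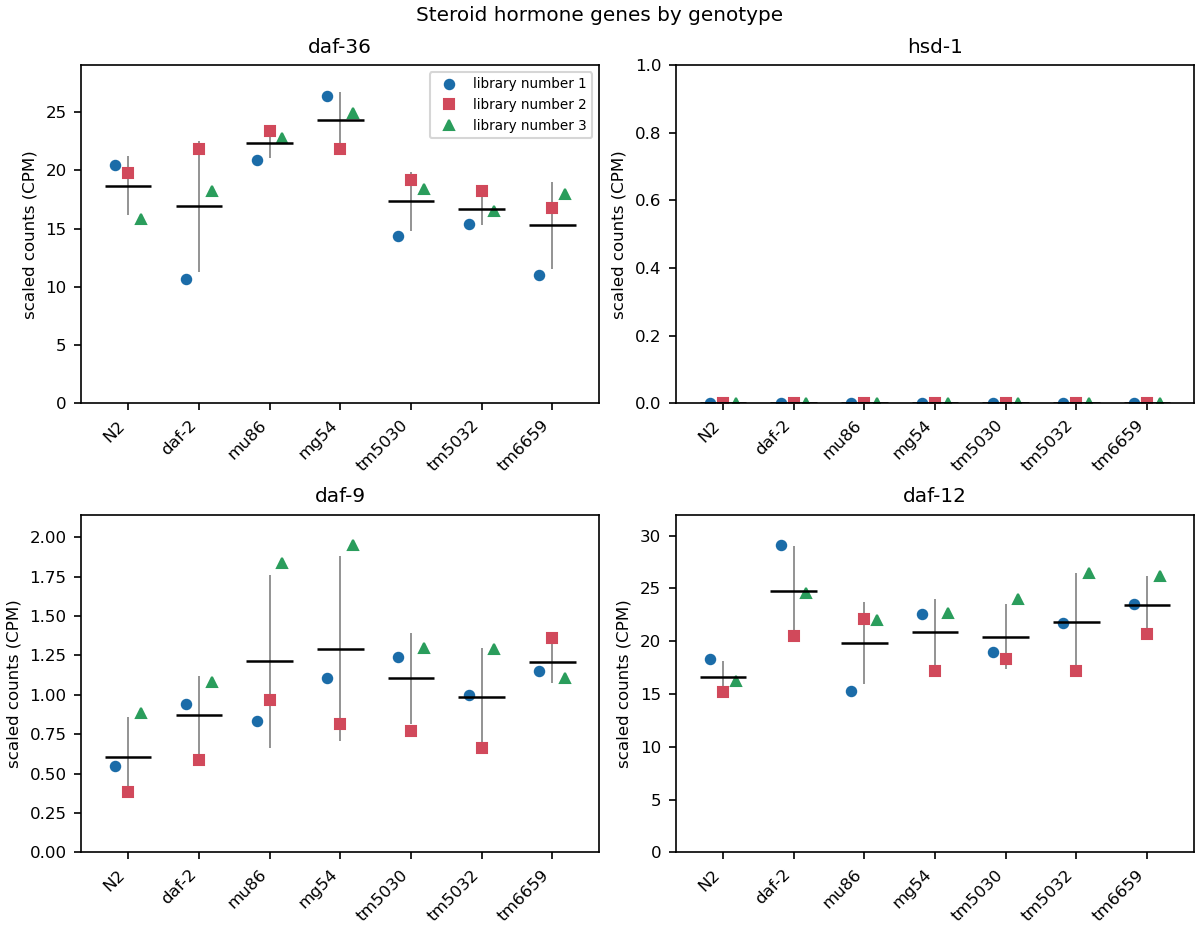
Scaled counts (CPM, y axis from 0) of daf-36, hsd-1, daf-9 and daf-12 in each library, by genotype (x axis). Symbols and colours give the library number, the black bar the mean and the grey line 1 SD either way (n = 3). The 6 mu86 and mg54 libraries of daf-36 sit at 20.9 to 26.4 CPM, the daf-2 libraries of daf-12 lie above those of N2, and hsd-1 is at 0 throughout.

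The ligand gene daf-7 had 4 to 128 fragments per library and the widest spread of the 10 genes. It stood at 0.284, 0.127 and 1.35 CPM in N2, at 1.08, 0.491 and 0.633 CPM in daf-2, and at 0.479, 0.810 and 1.68 CPM in mu86. The mg54 libraries were at 2.03, 0.715 and 3.57 CPM, the tm5030 libraries at 0.938, 0.579 and 2.20 CPM, the tm5032 libraries at 1.24, 0.181 and 2.63 CPM and the tm6659 libraries at 1.26, 1.07 and 0.993 CPM. The highest genotype mean was 3.59 times the lowest, yet every genotype overlapped every other. The libraries within each of N2, mg54, tm5030 and tm5032 differed among themselves by more than that. The ASI markers (4 of 4 genes found) summed to 1.03 to 2.87 CPM over the libraries.

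In CPM, the receptor genes varied little between genotypes. The type I receptor gene daf-1 ran from 21.4 to 30.9 CPM over the 21 libraries, with genotype means from 23.7 ± 1.99 CPM in mu86 to 27.3 ± 4.01 CPM in tm5030. The daf-4 locus, which holds the type II receptor gene shared with the Sma/Mab body-size pathway, ran from 43.6 to 54.5 CPM, with means from 45.7 ± 2.65 CPM in mu86 to 51.3 ± 2.22 CPM in N2. The ratio of the highest to the lowest genotype mean in CPM was 1.15 for daf-1 and 1.12 for the daf-4 locus. In FPKM the means ran from 10.3 in mu86 to 17 in N2 for daf-1, and from 16.9 to 28.9 for the daf-4 locus. In daf-2 against N2 on FPKM with 1 added, the log2 changes were -0.56 and -0.64, with neither called. The median locus stood at -0.37 on that scale. All 3 mu86 libraries of the daf-4 locus, at 48.7, 43.6 and 44.7 CPM, were below the 3 daf-2 libraries at 49.7, 51.6 and 48.9 CPM and the 3 N2 libraries at 50, 53.9 and 50.1 CPM. That difference did not pass the test in either comparison.

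Of the Smad genes, daf-8, which acts with the receptors, ran from 12.3 to 16.1 CPM. Its libraries stood at 15.5, 16.0 and 13.2 CPM in daf-2 and at 12.3, 12.6 and 12.7 CPM in mg54, with no overlap between these groups.

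The gene daf-3, the Smad that the pathway opposes, stood at 20.7, 22.2 and 23.4 CPM in N2 and at 39.6, 32.5 and 28.1 CPM in daf-2. All daf-2 libraries were above all N2 libraries. The mu86 libraries were at 23.7, 28 and 20.8 CPM and the mg54 libraries at 24.3, 22.8 and 21.6 CPM, all below the daf-2 libraries. The tm5030 libraries were at 36.6, 25.6 and 33.7 CPM, the tm5032 libraries at 35.4, 25.5 and 36.8 CPM and the tm6659 libraries at 33.6, 29.6 and 27.4 CPM. These overlapped daf-2, and all 9 were above the N2 libraries.

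Its partner gene daf-5 ran from 32.0 CPM in an N2 library to 51.6 CPM in a mg54 library. The mu86 libraries, at 43.2, 41.5 and 48.4 CPM, were all above the daf-2 libraries at 41.2, 41 and 35.5 CPM and the N2 libraries at 32.0, 36.9 and 40.4 CPM, by margins that did not pass the test.

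**Figure D2:**
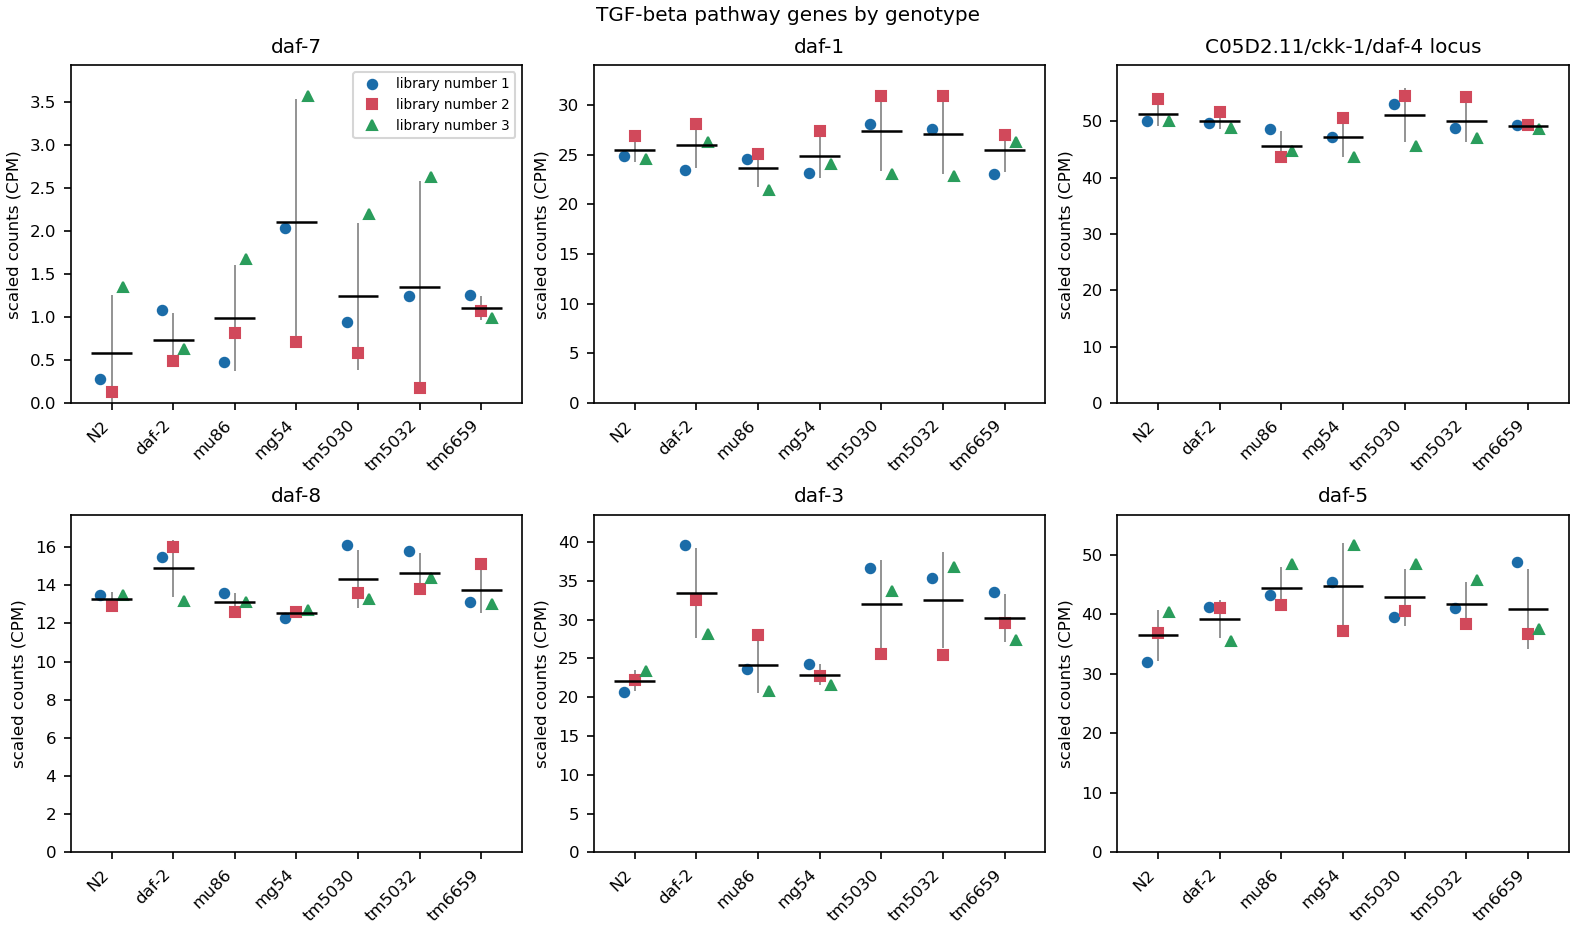
Scaled counts (CPM, y axis from 0) of daf-7, daf-1, the daf-4 locus, daf-8, daf-3 and daf-5 in each library, by genotype (x axis). Symbols and colours give the library number, the black bar the mean and the grey line 1 SD either way (n = 3). The daf-3 libraries of N2, mu86 and mg54 sit at 20.7 to 28 CPM, below the daf-2 libraries at 28.1 to 39.6 CPM, and daf-7 varies more within genotypes than the other genes.

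Tests used edgeR's quasi-likelihood method over all 21 libraries, with Benjamini-Hochberg adjustment over the 12091 loci of a comparison, and a locus was called at an adjusted p under 0.05. Log2 changes are given with their standard errors. The model has no term for the library number. With the number as a block, daf-3, daf-9 and the daf-4 locus were called in further comparisons, as given under the dependence on processing.

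The comparison of daf-2 with N2 asks what lowered insulin receptor signalling changes. Of the 9 genes tested, 2 rose and 0 fell, beside 16.7% of all loci called, 10.9% higher and 5.84% lower. Of those calls 65% were higher, against 54.8% with RLE scaling, 50.4% with upper-quartile scaling, and 38.3% and 38.4% on FPKM with 1 and 0.1 added. The daf-3 gene rose 1.51-fold, from 22.1 ± 1.37 to 33.4 ± 5.78 CPM (log2 change 0.60 ± 0.17, edgeR adjusted p = 0.0207, 3 of 3 libraries higher). The daf-12 gene rose 1.49-fold, from 16.6 ± 1.57 to 24.7 ± 4.34 CPM (log2 change 0.58 ± 0.19, edgeR adjusted p = 0.0486, 3 of 3 libraries higher). The other 7 had adjusted p-values of 0.305 or more, with log2 changes from -0.15 ± 0.22 for daf-36 to 0.52 ± 0.42 for daf-9. The median change of the 9 was 0.16, beside 0.08 for all loci.

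Without a term for the library number, both calls depended on single libraries. With the number as a block and all libraries kept, the edgeR adjusted p-values were 0.00867 for daf-12 and 0.00721 for daf-3. No library was left out under the block. For daf-12 the call was lost without N2 library 1 (log2 change 0.61, adjusted p = 0.0788), N2 library 2 (0.48, 0.188), N2 library 3 (0.53, 0.104), daf-2 library 1 (0.36, 0.292) or daf-2 library 3 (0.50, 0.144). For daf-3 it was lost without N2 library 1 (0.51, 0.116), N2 library 2 (0.57, 0.0907), N2 library 3 (0.60, 0.0505), daf-2 library 1 (0.38, 0.210) or daf-2 library 2 (0.53, 0.0671). Left out by number over all genotypes, the calls were lost without the libraries numbered 1 (adjusted p = 0.496 for daf-12 and 0.585 for daf-3) or 2 (0.0752 and 0.0706), and that of daf-12 also without those numbered 3 (0.109). The deposited FPKM gave log2 changes of -0.05 for daf-12 and -0.01 for daf-3 with 1 added, with neither called, while the median locus stood at -0.37 on that scale. Relative to the median locus the changes were 0.32 for daf-12 and 0.36 for daf-3 on the FPKM scale, and 0.50 and 0.52 on the count scale.

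Of the tissue marker lists, only that of embryos separated these groups without overlap. The 9 embryo markers summed to 5.03 to 9.35 CPM in N2 and to 0.688 to 1.14 CPM in daf-2. The 9 sperm markers summed to 46.4 to 77.7 CPM in N2 and to 62.6 to 149 CPM in daf-2, the 8 oocyte markers to 8120 to 9630 and to 7260 to 8630 CPM, the 5 hypodermis markers to 1070 to 2220 and to 1550 to 2760 CPM, and the 8 neuron markers to 301 to 321 and to 312 to 337 CPM. In N2 and daf-2 the intestine markers summed to 629 to 848 and to 735 to 869 CPM. The ASI markers summed to 1.46 to 2.41 and to 1.33 to 2.02 CPM. The part of these lists in the daf-12 and daf-3 values was not tested.

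**Figure D3:**
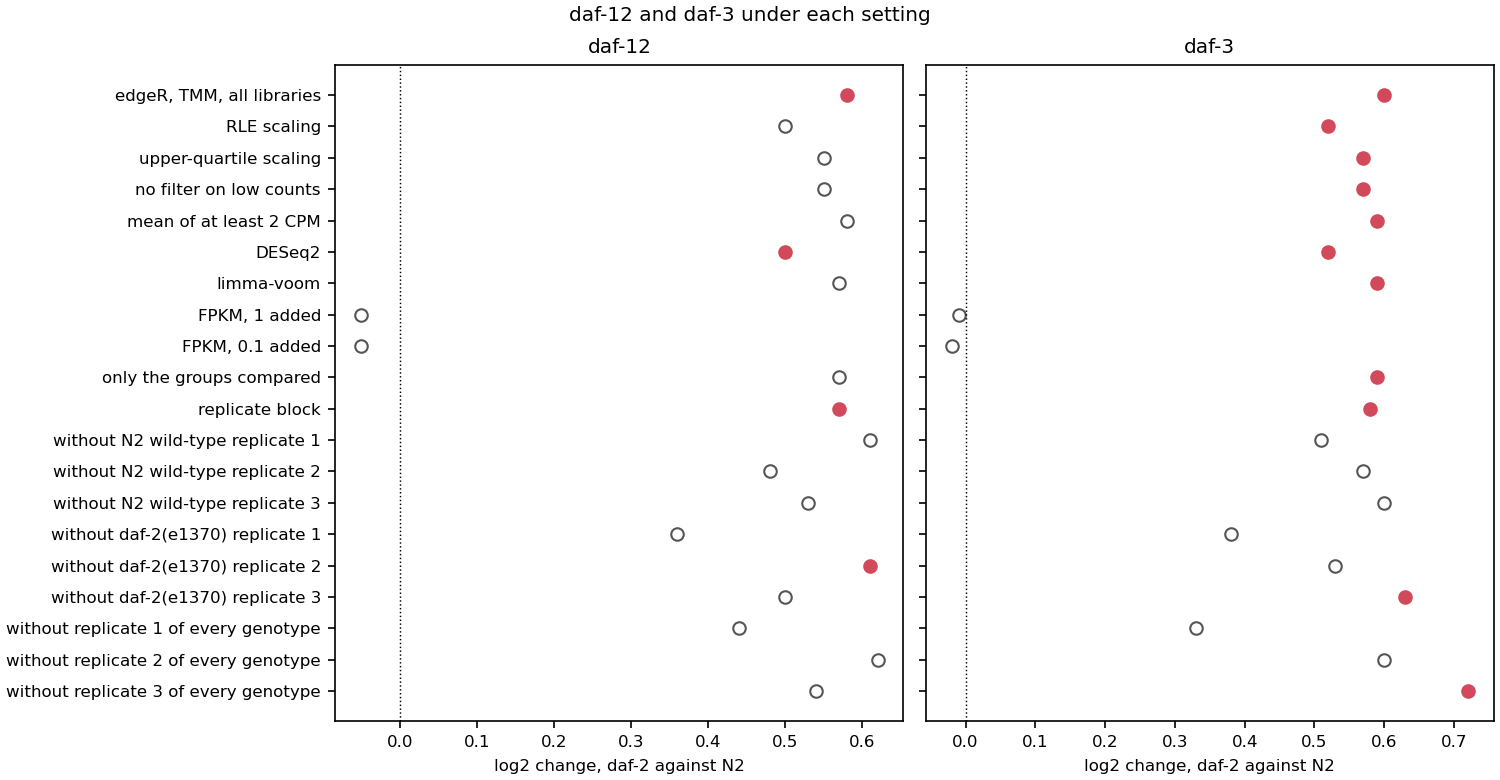
Log2 change of daf-12 (left) and daf-3 (right) in daf-2 against N2 (x axis) under the reported analysis and each alternative (y axis). Filled red points have an adjusted p under 0.05 and open grey points do not. The changes are positive under all count settings and at -0.05 to -0.01 under the FPKM settings, and most points without a library are open.

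Setting each double mutant against daf-2 asks which levels depend on daf-16 when insulin signalling is low. In the null mu86 against daf-2, 0 of 9 were called, beside 10.3% of all loci (4.13% higher and 6.16% lower), with 1 at an unadjusted p under 0.05 and 0 called by DESeq2. Of the calls over all loci 40.1% were higher, against 52.3% with upper-quartile scaling. The gene with the unadjusted p under 0.05 was daf-3, at 24.2 ± 3.63 against 33.4 ± 5.78 CPM (log2 change -0.46 ± 0.17, edgeR adjusted p = 0.0948, 3 of 3 libraries lower). The 95% interval of its change ran from -0.82 to -0.11. The daf-12 gene had a log2 change of -0.32 ± 0.19 (edgeR adjusted p = 0.377), and daf-36 one of 0.41 ± 0.22 (edgeR adjusted p = 0.319). The median change of the 9 was -0.13, beside -0.01 for all loci.

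In mg54, which affects isoforms a and f, against daf-2, 0 of 9 were called, beside 9.35% of all loci (3.77% higher and 5.57% lower). An unadjusted p under 0.05 was found for 3 genes, and DESeq2 called 1 of them lower, daf-3. The daf-3 level was 22.9 ± 1.37 CPM against 33.4 ± 5.78 CPM (log2 change -0.54 ± 0.17, edgeR adjusted p = 0.0513, DESeq2 adjusted p = 0.0205, 3 of 3 libraries lower). The daf-8 level was 12.5 ± 0.199 CPM against 14.9 ± 1.5 CPM (log2 change -0.25 ± 0.11, edgeR adjusted p = 0.209, 3 of 3 libraries lower). For daf-36 the level was 24.4 ± 2.37 CPM against 16.9 ± 5.68 CPM (log2 change 0.53 ± 0.22, edgeR adjusted p = 0.172). Without daf-2 library 2, daf-36 was called higher, at a log2 change of 0.81 and an adjusted p of 0.046. The daf-7 change was 1.52 ± 0.87 with a 95% interval from -0.35 to 3.38, and its libraries overlapped. The comparisons of mu86 and of mg54 share the daf-2 libraries.

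In the isoform mutants against the same daf-2 libraries, 0 of 9 genes were called in tm5030 (beside 0.91% of all loci), 0 in tm5032 (1.04%) and 0 in tm6659 (0.174%). No gene had an unadjusted p under 0.05 in these 3 comparisons, and DESeq2 called 0. For daf-3 the log2 changes were -0.06 ± 0.17 in tm5030, -0.04 ± 0.17 in tm5032 and -0.15 ± 0.17 in tm6659. The 95% interval of the tm6659 change ran from -0.50 to 0.21 and that of tm5030 from -0.42 to 0.29. For daf-36 they were 0.04 ± 0.22, -0.02 ± 0.22 and -0.14 ± 0.22, with intervals of -0.44 to 0.51 in tm5030 and -0.62 to 0.33 in tm6659. For daf-12 they were -0.28 ± 0.19, -0.18 ± 0.19 and -0.08 ± 0.19.

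**Figure D4:**
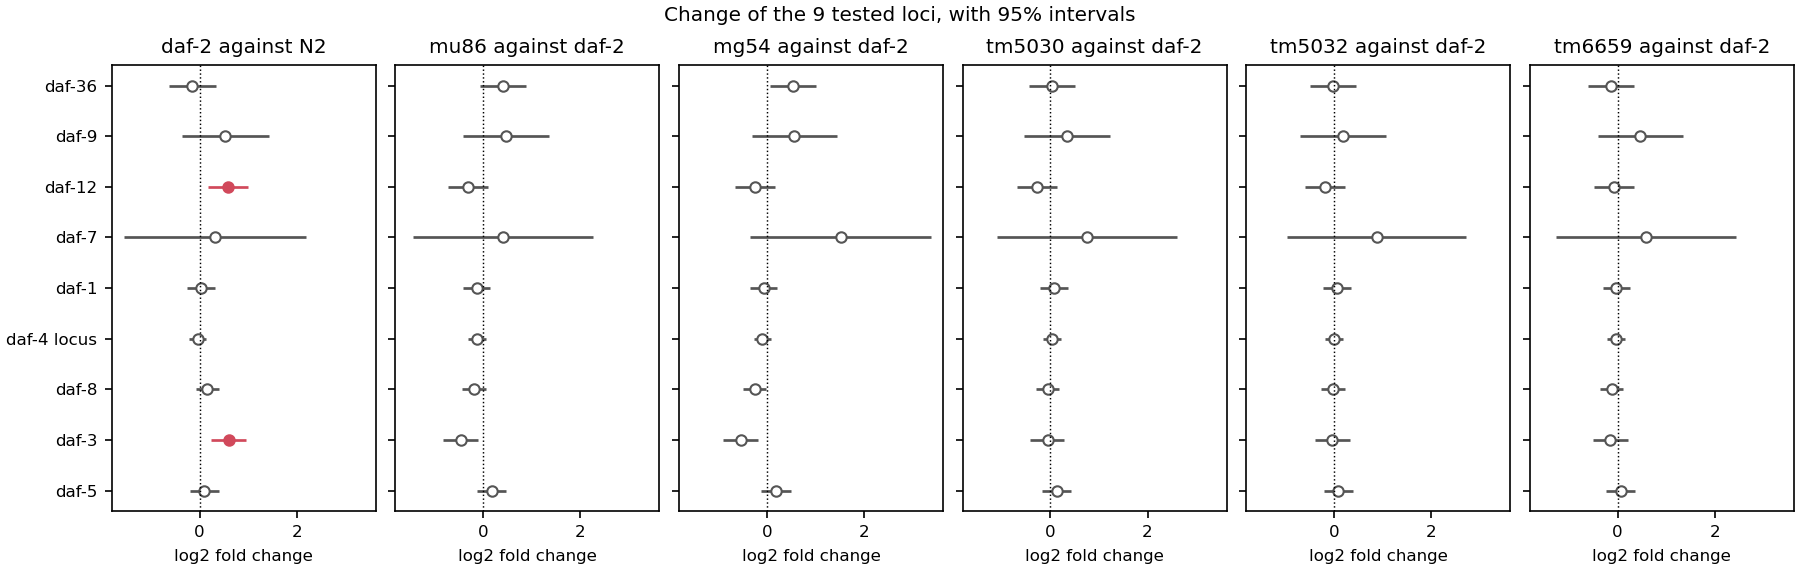
Log2 fold change (x axis) with its 95% interval for the 9 tested loci (y axis) in daf-2 against N2 and in each daf-16;daf-2 genotype against daf-2. Filled red points were called at an adjusted p under 0.05 and open grey points were not. The red points are daf-12 and daf-3 in daf-2 against N2, and the intervals of daf-7 are the widest.

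The comparison of mu86 with N2 asks what remains of the daf-2 effect without daf-16. It called 0 of 9 genes, beside 1.52% of all loci, with 1 at an unadjusted p under 0.05 and 0 called by DESeq2. That gene was daf-9, at 1.21 ± 0.547 against 0.603 ± 0.255 CPM (log2 change 0.99 ± 0.42, edgeR adjusted p = 0.172). For daf-3 the change was 0.13 ± 0.17, with a 95% interval from -0.23 to 0.49, and for daf-12 it was 0.26 ± 0.19, with an interval from -0.15 to 0.67. A further 3 comparisons each called 0 of 9 genes, with 0 at an unadjusted p under 0.05 and 0 called by DESeq2. These were mg54 against mu86 (0.0331% of all loci called), the mean of tm5030 and tm5032 against tm6659 (2.44%), and tm5032 against tm5030 (0.0248%).

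The CPM values of daf-36, and with some overlap those of daf-3, set mu86 and mg54 apart from the single-isoform mutants. The mu86 and mg54 alleles affect both isoforms a and f. A direct comparison of the mean of mu86 and mg54 with the mean of tm5030, tm5032 and tm6659 was added after these values were seen, so it restates that grouping and its p-values are no independent support for it. It called 1 of 9 genes higher and 1 lower, beside 11.1% of all loci (4.7% higher and 6.37% lower). The daf-36 gene stood at 20.9 to 26.4 CPM (median 23.1) in the 6 mu86 and mg54 libraries and at 11.0 to 19.2 CPM (median 16.8) in the 9 others (log2 difference 0.51 ± 0.14, edgeR adjusted p = 0.0256). The groups did not overlap in CPM. In FPKM they did, with mu86 library 3 at 14 and tm5030 library 2 at 20.7. The daf-3 gene stood at 20.8 to 28 CPM in the first 6 and at 25.5 to 36.8 CPM in the 9 others (log2 difference -0.42 ± 0.11, edgeR adjusted p = 0.0162), with some overlap.

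Both calls were lost on FPKM, at adjusted p-values of 0.466 to 0.471 for daf-36 and 0.111 to 0.118 for daf-3. For daf-36 the call was also lost without any 1 of 6 libraries: mu86 library 2 (0.48, adjusted p = 0.071), mu86 library 3 (0.50, 0.0579), mg54 library 1 (0.50, 0.0562), mg54 library 3 (0.50, 0.055), tm5030 library 1 (0.46, 0.0622) or tm5032 library 1 (0.48, 0.059). For daf-3 it was lost without mu86 library 3 (-0.38, adjusted p = 0.052) or tm6659 library 1 (-0.37, 0.0511). Left out by number over all genotypes, the daf-36 call was lost without number 1 (0.40, adjusted p = 0.131), 2 (0.60, 0.0987) or 3 (0.54, 0.138), and the daf-3 call without number 1 (-0.34, 0.418) or 3 (-0.34, 0.155). The intestine markers (4 of 5 genes found), given because daf-36 is known from the intestine, summed to 792 to 1200 CPM in mu86 and 812 to 1260 CPM in mg54. They summed to 723 to 1130 CPM in tm5030, 675 to 1050 CPM in tm5032 and 770 to 839 CPM in tm6659. The oocyte markers summed to 5430 to 7380 CPM in mu86 and 5510 to 8060 CPM in mg54, and to 6650 to 9790, 6830 to 9930 and 6700 to 7240 CPM in the other 3 in the same order. The embryo markers summed to 0.723 to 8.72 CPM in mu86 and 0.78 to 10.6 CPM in mg54, and to 0.606 to 1.71, 0.907 to 2.36 and 1.02 to 1.03 CPM in the other 3. The neuron markers summed to 305 to 311 and 306 to 315 CPM in mu86 and mg54, and to 313 to 328, 326 to 338 and 312 to 339 CPM in the other 3. The sperm markers summed to 78.3 to 226 and 65.2 to 206 CPM, and to 49.7 to 209, 44 to 173 and 69.4 to 135 CPM. The hypodermis markers summed to 2100 to 4350 and 1590 to 4210 CPM, and to 1700 to 4160, 1450 to 3840 and 2290 to 3200 CPM. The part of these lists in the differences was not tested.

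Libraries with the same number deviated together across genotypes, most for numbers 2 and 3. Several of the 10 genes moved with the number, as most loci did. The labels do not say what the number marks. These 2 sets of libraries were compared after that was seen, so the p-values are no independent support for it. Between the 7 libraries numbered 3 and the 7 numbered 2, with genotype in the model, 5 of 9 genes were called, 3 higher and 2 lower, beside 67% of all loci (36.2% higher and 30.8% lower). The called share of these genes was below that of all loci. The daf-7 mean was 1.86 CPM in number 3 and 0.568 CPM in number 2 (log2 difference 1.72 ± 0.41, edgeR adjusted p = 0.00176, higher in 6 of 7 genotypes). The daf-9 mean was 1.35 against 0.793 CPM (0.79 ± 0.19, edgeR adjusted p = 0.00181, higher in 6 of 7) and the daf-12 mean 23.2 against 18.7 CPM (0.30 ± 0.10, edgeR adjusted p = 0.0168, higher in 6 of 7). The receptor genes were lower in number 3, daf-1 at 24.1 against 28 CPM (-0.22 ± 0.06, edgeR adjusted p = 0.0071, lower in 7 of 7) and the daf-4 locus at 46.9 against 51.1 CPM (-0.12 ± 0.04, edgeR adjusted p = 0.0216, lower in 6 of 7). The daf-12 call was lost without the tm5032 libraries (0.25, adjusted p = 0.0697). The daf-4 call was lost with upper-quartile scaling, at a log2 difference of -0.06 (adjusted p = 0.143), with loci under a mean of 2 CPM left out (-0.08, 0.081), and without the libraries of mg54 (-0.10, 0.0779), tm5030 (-0.08, 0.137) or tm5032 (-0.11, 0.0679). The daf-5 gene, not called at a log2 difference of 0.17 (edgeR adjusted p = 0.0808), was called with upper-quartile scaling (0.23, 0.0267), with loci under a mean of 2 CPM left out (0.22, 0.0358), and without the daf-2 (0.23, 0.0262) or tm6659 libraries (0.19, 0.0435).

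Several marker lists moved with the library number too. The oocyte markers summed to a median of 8630 CPM in number 2 (7240 to 9930) and 6830 CPM in number 3 (5430 to 8120), lower in 7 of 7 genotypes. The sperm markers were at 62.6 CPM (44 to 112) in number 2 and 173 CPM (77.7 to 226) in number 3, and the hypodermis markers at 1590 CPM (1070 to 2710) and 3840 CPM (2220 to 4350). The intestine markers were at 735 CPM (629 to 942) and 1050 CPM (839 to 1260) and the ASI markers at 1.46 CPM (1.04 to 1.83) and 2.25 CPM (2.02 to 2.87). Each of these 4 lists was higher in number 3 in 7 of 7 genotypes. The 8 neuron markers were at a median of 321 and 312 CPM and higher in 3 of 7. The embryo markers were at a median of 1.02 and 1.03 CPM and higher in 4 of 7. The part of these markers in the values of daf-7, daf-9, daf-12, daf-1 and daf-4 was not tested.

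**Figure D5:**
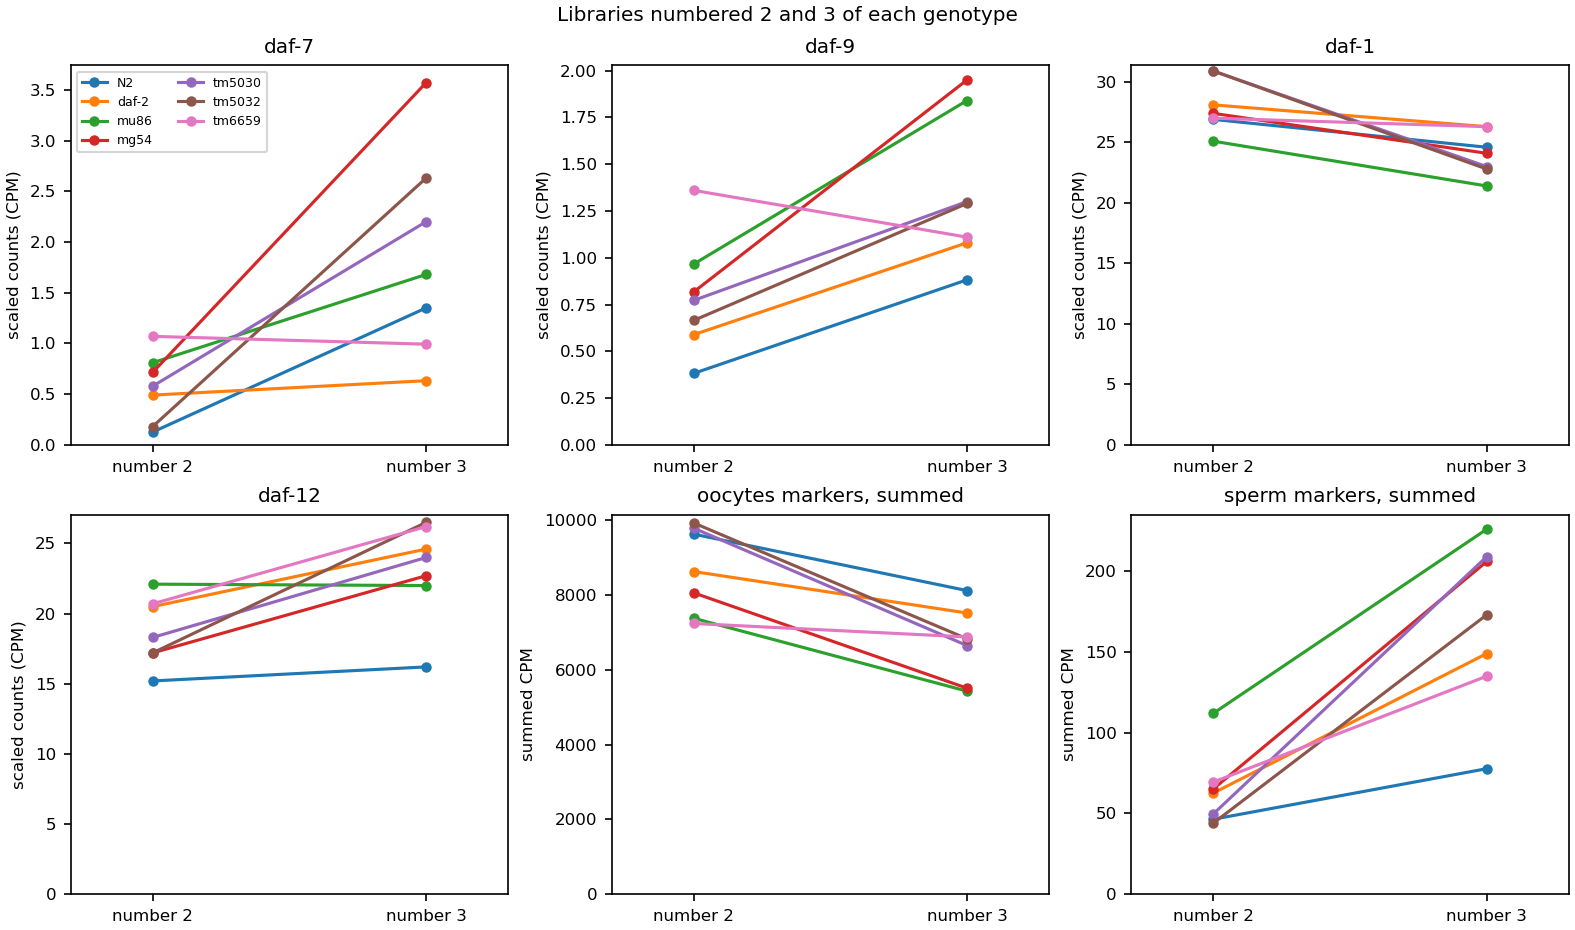
Libraries numbered 2 and 3 of each genotype (x axis, joined by a line per genotype) for daf-7, daf-9, daf-1 and daf-12 in scaled counts (CPM) and for the summed CPM of the oocyte and sperm markers, y axes from 0. Number 3 is above number 2 in 6 of 7 genotypes for daf-7, daf-9 and daf-12 and in 7 of 7 for the sperm markers, and below it in 7 of 7 for daf-1 and the oocyte markers.

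Other genes of the same pathways, and some linked to them, were counted in 4 lists. Over all loci, 10.9% were called higher and 5.84% lower in daf-2 against N2. The shares were 4.13% and 6.16% in mu86 and 3.77% and 5.57% in mg54 against daf-2. Of 10 steroid hormone pathway genes, 8 were found and tested, and in daf-2 against N2 1 rose and 1 fell, with a median log2 change of -0.11 beside 0.08 for all loci. The gene that rose was ncr-2, a Niemann-Pick C1 homologue of cholesterol transport, at 6.90, 3.24 and 5.84 CPM in daf-2 against 1.68, 1.53 and 2.02 CPM in N2 (log2 change 1.61 ± 0.48, edgeR adjusted p = 0.0302, called in 11 of 19 other settings). The locus of daf-21, which encodes the chaperone Hsp90, fell from 5030, 5510 and 4760 CPM to 3550, 4170 and 3700 CPM (-0.42 ± 0.11, edgeR adjusted p = 0.0152, called in 15 of 19). That locus also holds CELE_C47E8.11 and CELE_C47E8.3 and counts in the dauer TGF-beta list as well.

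In mu86 against daf-2, 1 of the 8 rose and 0 fell (median 0.06, beside -0.01). It was dhs-16, a hydroxysteroid dehydrogenase of dafachronic acid synthesis, with 51, 17 and 24 fragments in mu86 and 0, 6 and 2 in daf-2. The levels were 0.839 and 0.0856 CPM (log2 change 3.29 ± 1.00, edgeR adjusted p = 0.0441, called in 8 of 18 other settings), and the size of the change rests on those few daf-2 fragments. The 3 mg54 libraries had 3, 4 and 11 fragments of dhs-16. In mg54 against daf-2, 1 of the 8 rose and 0 fell, and it was nhr-8, a nuclear receptor close to DAF-12 (24.7 against 17.5 CPM, log2 change 0.50 ± 0.15, edgeR adjusted p = 0.0416). It is named as a count of 1, outside the rule for named genes.

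Of 10 other genes listed with the dauer TGF-beta pathway, 9 were found and 6 tested (daf-14, bra-1, bra-2, daf-21, daf-28 and tph-1). The list is broader than the pathway and holds, for example, the Hsp90 gene daf-21. In daf-2 against N2, 0 rose and 1 fell (median -0.05, beside 0.08), and the 1 was the daf-21 locus above. In mu86 and in mg54 against daf-2, 0 of the 6 were called. The remaining Smad gene of the pathway, daf-14, stood at 12.1 CPM in daf-2 and 7.98 CPM in N2, with no overlap (log2 change 0.60 ± 0.20, edgeR adjusted p = 0.0547). Its log2 change in mu86 against daf-2 was 0.00 ± 0.20 (edgeR adjusted p = 0.999).

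The 14 genes listed with the Sma/Mab TGF-beta pathway, which sets body size and shares the DAF-4 receptor, filled 15 loci tested. The ligand genes tig-3 and unc-129 are listed as members of the TGF-beta family, and their place in that pathway is not established here. In daf-2 against N2, 3 loci rose and 1 fell, beside 10.9% and 5.84% of all loci (median 0.24, beside 0.08). The Smad gene sma-3 rose from 3.92 to 6.24 CPM at 1 of its 2 loci (0.67 ± 0.17, edgeR adjusted p = 0.0132, called in 9 of 19 other settings). The locus of sma-10, which also holds best-19, rose from 26.1 to 41.8 CPM (0.68 ± 0.22, edgeR adjusted p = 0.0385, called in 4 of 19). The ligand gene tig-2 rose from 3.39, 2.58 and 3.94 CPM to 5.88, 5.24 and 6.84 CPM (0.86 ± 0.23, edgeR adjusted p = 0.0165, called in 11 of 19).

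The gene that fell was tig-3, which encodes another TGF-beta family ligand and had the smallest adjusted p of the 4 lists in mu86 and in mg54 against daf-2. It stood at 1.22, 0.795 and 1.19 CPM in N2 and at 0.414, 0.655 and 0.542 CPM in daf-2 (-1.0 ± 0.32, edgeR adjusted p = 0.0417, called in 9 of 18 other settings). In mu86 it stood at 2.17, 2.64 and 2.37 CPM, a 4.44-fold rise over daf-2 (2.15 ± 0.33, edgeR adjusted p = 0.000268). In mg54 it stood at 2.19, 2.76 and 2.31 CPM, a 4.49-fold rise (2.17 ± 0.33, edgeR adjusted p = 0.000307). The size of both rises rests on few fragments, 15, 20 and 18 in the daf-2 libraries. Both calls held in 17 of 18 other settings and were lost without the libraries numbered 1 of every genotype (2.1, adjusted p = 0.0536 in mu86, and 2.12, 0.0588 in mg54). The tm5030, tm5032 and tm6659 libraries stood at 0.577 to 1.22 CPM, below all mu86 and mg54 libraries, and none of these 3 groups was called against daf-2. In mu86 and in mg54 tig-3 was the 1 of 15 loci that rose, and 0 fell.

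Of 4 genes of dauer pheromone synthesis, 3 were found, at 4 loci. In daf-2 against N2, 3 loci rose and 0 fell, beside 10.9% and 5.84% of all loci (median 0.47, beside 0.08). These pheromone genes encode enzymes that shorten the side chains of ascarosides. The thiolase gene daf-22 rose from 48.4 to 59.6 CPM (0.30 ± 0.09, edgeR adjusted p = 0.0275, called in 5 of 19 other settings), dhs-28 from 73.7 to 107 CPM at 1 of its 2 loci (0.54 ± 0.11, edgeR adjusted p = 0.00178, called in 15 of 19) and maoc-1 from 43.3 to 58.8 CPM (0.44 ± 0.10, edgeR adjusted p = 0.00388, called in 15 of 19). On the FPKM scale all 3 changes were below 0, at -0.32, -0.08 and -0.17 in that order, against the median locus at -0.37. In mu86 and in mg54 against daf-2, 0 of the 4 loci were called, with medians of -0.22 and -0.11. In tm5030, tm5032 and tm6659 against daf-2, 0 loci of any of the 4 lists were called, beside 0.91%, 1.04% and 0.174% of all loci.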

How the data were processed

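Per the submitters' processing notes, the authors used CASAVA 1.8.2, TopHat2 2.0.9 and Cufflinks 2.1.1. Which genome build and annotation they used is not given in the sources used here. Expected counts of fragments per locus and FPKM (scaled for length and library) were deposited by the authors for 33886 loci. Of the deposited counts, 86.3% are whole (tolerance 1e-09), including all counts of the 10 genes. The 3 entries that are not loci and 300 unnamed loci (1.06% to 1.54% of a library's counts) were left out, and 0 columns were unused.

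Counts were rounded and fitted with edgeR 4.0.16 in R 4.3.3, in 1 quasi-likelihood model of the 7 genotypes with TMM scaling and filterByExpr, leaving 12091 loci. The common biological coefficient of variation was 0.346. Tests were 2-sided, with Benjamini-Hochberg adjustment within each of 10 comparisons. Intervals are 95% with 14 degrees of freedom. CPM are counts scaled by TMM library sizes, with SD over 3 libraries. Alternatives used DESeq2 1.42.0, limma 3.58.1, other scalings and filters, limma on log2 FPKM with 1 or 0.1 added, a replicate block, and left-out libraries. The code was tested on simulated data. The 2 comparisons added later are named where used.

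The 10 genes and the lists were chosen with earlier results of these data known. The rule for named genes took all 10, and from each list every gene called in daf-2 against N2 or in mu86 against daf-2 (at most 4). Others (nhr-8 and daf-14) were chosen after their values were seen. In all, 4 listed genes were not found by name, and daf-11, tax-2 and tax-4 did not pass the filter.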

Additional observations from a re-analysis of the deposited data

Results flagged for a closer look

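For daf-36, the mutants of both isoforms a and f stood apart from the single-isoform mutants in CPM and overlapped them in FPKM. For daf-3 the mutants of both isoforms were lower in CPM, with some overlap. These groups were compared directly only after the values had shown this grouping. The comparison thus restates that observation and is no independent support for it. Both calls were lost on FPKM. The log2 difference was 0.51 for daf-36 and -0.42 for daf-3 (mean of mu86 and mg54 minus mean of tm5030, tm5032 and tm6659). Over 28 other settings the daf-36 difference ran from 0.40 to 0.60 and was called in 17, and the daf-3 difference ran from -0.58 to -0.34 and was called in 22.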

How the results depend on the processing

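In daf-2 against N2, 2 genes (daf-3 and daf-12) were called, also with DESeq2. RLE scaling, upper-quartile scaling, no filter on low counts, a mean of at least 2 CPM, limma-voom and the compared groups alone called 1, daf-3. FPKM with 1 or 0.1 added called 0, and 0 to 1 were called without a library or a library number. On FPKM with 1 added the log2 changes turned to -0.05 for daf-12, -0.01 for daf-3, -0.32 for daf-22, -0.08 for dhs-28 and -0.17 for maoc-1, and with 0.1 added to -0.05, -0.02, -0.32, -0.08 and -0.17, against median loci of -0.37 and -0.51. The median locus stood at 0.08 on the count scale, and the cause of the shift was not tested. In mg54 against daf-2, 0 were called, but 1 with DESeq2 and 0 to 1 without a library. The added comparison of mu86 and mg54 with the single-isoform mutants called 2, but 0 on both FPKM scales and 0 to 2 without a library. Between numbers 3 and 2, 5 were called, 5 with upper-quartile scaling (with daf-5 in place of daf-4), 3 at a mean of at least 2 CPM (which leaves out daf-7 and daf-9) and 3 to 6 without a genotype. The remaining comparisons called 0 under all alternatives run, except under the block.

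The replicate numbers are shared by the genotypes. Same-numbered libraries of 2 genotypes correlated over 0.1 in 57 of 63 pairs (median 0.494, lowest -0.315), and 18 of 21 libraries correlated best with their own number. The labels do not say what the number marks, and as 6 pairs of number 1 stayed at or below 0.1 the reported analysis has no block. With the number as a block, 2 genes were called in daf-2 against N2, 1 in mu86 against daf-2 (daf-3, -0.45, adjusted p = 0.0455), 1 in mg54 against daf-2 (daf-3, -0.54, 0.0218) and 2 in mu86 against N2 (daf-9 at 1.00, 0.0129, and the daf-4 locus at -0.17, 0.047).

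Over all loci, calls ranged across all other settings, left-out libraries included, from 326 to 5330 in daf-2 against N2 (2018 reported), 223 to 2631 in mu86 (1244), 180 to 2300 in mg54 (1130), 1 to 455 in tm5030 (110), 4 to 439 in tm5032 (126) and 4 to 85 in tm6659 (21) against daf-2, 2 to 5827 in mu86 against N2 (184), 2 to 10 in mg54 against mu86 (4), 17 to 950 in isoform a against f (295), 0 to 5 in tm5032 against tm5030 (3) and 294 to 2592 in the added comparison (1338). The depth gave 4 to 128 fragments of daf-7 and 12 to 70 of daf-9 per library.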
